A study of Mus musculus with 12 samples.

Results

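The 7 genes described here are the metallothioneins Mt1 and Mt2 and 5 genes of the acute phase and stress response, Lcn2, Serpina3n, Saa3, Orm1 and Angptl4. They were chosen by name from the gene symbols of the deposited transcript table, and the TPM values (a transcript's length-corrected share of a library) of all transcripts of a gene were summed. All 7 of 7 were found among 33641 gene symbols, and all 7 were among the 13158 genes that passed the filter on low values, which asked for 1 TPM or more in 3 or more of 12 libraries. RNA was measured in the myocardium of 12 male C57BL/6 wild-type mice, 3 in each of 4 groups, after a sham operation or after surgery that caused a myocardial infarction (MI). Mice of the vehicle groups were injected weekly for 6 weeks with vehicle. Those of the prednisone groups received 1 mg/kg prednisone, a synthetic glucocorticoid, intraperitoneally on the same weekly schedule, from a stock in DMSO diluted in PBS. Injections were given at lights-on and began 2 weeks after the operation, and hearts were taken 24 hours after the last one. The labels give an age of about 16 weeks as the model's description and of about 10 weeks in the treatment protocol. The labels do not state how the infarct was made or which region of the heart was sampled, and every mouse had been operated on. There was no unoperated group.

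Metallothioneins are small cysteine-rich proteins that hold zinc and copper in the cytosol. Zinc releases the transcription factor Mtf1 onto metal response elements in their promoters, and glucocorticoids and inflammatory cytokines are further known inducers. Acute phase genes are those whose plasma products change after injury: the liver is their main source, under the control of interleukin 6, interleukin 1, Stat3, C/EBP factors and the glucocorticoid receptor. Serpina3n, Saa3 and Lcn2 are also made in injured tissues themselves. Angptl4 is a PPAR and glucocorticoid target that inhibits lipoprotein lipase, the enzyme that frees fatty acids from circulating triglycerides.

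Mt2 and Mt1 lie next to each other on chromosome 8 of GRCm38 (GENCODE M21), both on the plus strand. Mt2 spans 94172664 to 94173568 and Mt1 spans 94179082 to 94180327, with 5513 bases between them. The other members lie apart. Serpina3n is on chromosome 12 (104406729 to 104414329, plus strand), Saa3 on chromosome 7 (46711998 to 46715700, minus strand) and Lcn2 on chromosome 2 (32384633 to 32388252, minus strand). Orm1 is on chromosome 4 (63344560 to 63348163, plus strand) and Angptl4 on chromosome 17 (33773750 to 33781830, minus strand). All 7 are annotated as protein-coding.

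Promoters are shown for the 2 metallothioneins, because they are neighbours that moved by different amounts, and for Serpina3n. It was the only member called in the test for a difference in prednisone response between sham and MI. That call was lost in several of the alternative fits described below, and 20.7% of all genes were called lower in the same test. RefSeq promoters (GRCm38.p6) were matched by symbol for 5 of the 7 members. They are Mt1, Mt2, Lcn2, Saa3 and Serpina3n. Each sequence below is the 250 bases before the RefSeq start site, 5′ to 3′ on the gene's strand. Capitals mark matches, on either strand, to the core of the metal response element (TGCACNC or TGCGCNC) in Mt2 and Mt1, and to the hexamer bound by the glucocorticoid receptor (AGAACA) in Serpina3n.
Mt2, chr8:94172368-94172617: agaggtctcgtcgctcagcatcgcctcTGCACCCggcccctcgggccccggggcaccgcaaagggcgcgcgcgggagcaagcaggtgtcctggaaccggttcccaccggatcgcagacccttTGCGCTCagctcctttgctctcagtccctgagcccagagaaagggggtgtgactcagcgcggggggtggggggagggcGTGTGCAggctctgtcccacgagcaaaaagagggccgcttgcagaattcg
Mt1, chr8:94178839-94179088: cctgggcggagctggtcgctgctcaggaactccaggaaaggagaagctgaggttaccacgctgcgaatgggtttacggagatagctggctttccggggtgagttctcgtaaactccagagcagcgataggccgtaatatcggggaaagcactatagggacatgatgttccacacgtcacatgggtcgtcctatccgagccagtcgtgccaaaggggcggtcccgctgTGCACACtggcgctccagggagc
Serpina3n, chr12:104406458-104406707: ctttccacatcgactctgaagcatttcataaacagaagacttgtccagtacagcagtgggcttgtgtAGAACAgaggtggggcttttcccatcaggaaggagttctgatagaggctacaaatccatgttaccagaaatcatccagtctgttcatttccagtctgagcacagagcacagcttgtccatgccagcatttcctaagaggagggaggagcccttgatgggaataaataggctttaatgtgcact

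The Mt2 window held 3 matches to the metal response element core, starting at -223, -128 and -50 from the start site, and the Mt1 window held 1, at -23. Of 32851 RefSeq promoter windows of the same length, 21.4% held at least 1 such match and 1.26% held 3 or more. The Serpina3n window held 1 AGAACA, at -183, as did 16.1% of the windows. The C/EBP core TTGCNNAA was matched at -216 in Lcn2, at -99 in Saa3 and at -12 in Mt2, against 9.56% of windows. The STAT core TTCNNNGAA, present in 7.02% of windows, was matched in none of the 5. No matches of different motifs overlapped. A match is a description of these letters only. The window ends at the RefSeq start sites, which differ from the GENCODE starts given above, and elements outside it were not searched. The counts for Mt2 and Mt1 therefore hold for these windows alone and are not a comparison of whole promoters. Their part in the unequal changes of the pair was not tested.

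Facts of the libraries touch every value. Cardiomyocyte markers (Myh6, Actc1, Tnnt2, Tnni3, Myl2 and Ryr2) summed to between 20924 and 25958 TPM in MI vehicle, below every other library (29257 to 34966 TPM), and to 30926 to 34009 TPM in MI prednisone. The markers did not move together. Myh6, Tnnt2, Tnni3 and Myl2 had higher means in MI prednisone than in MI vehicle. Actc1 (4474 against 5222 TPM) and Ryr2 (30.2 against 42.9 TPM) had lower means there. All 8 MI marker genes (Nppa, Nppb, Myh7, Postn, Col1a1, Col3a1, Acta1 and Timp1) rose in MI against sham under vehicle. TPM keeps no depth, so the number of reads is unknown and no counting error could be attached. Mitochondrially encoded RNA took 21.6% to 42.0% of a library, with 24.6%, 21.6% and 35.9% in MI prednisone. Nuclear copies of mitochondrial DNA took 15.3% to 20.3% in MI prednisone and 9.3% to 14.6% elsewhere. The part of this composition in the prednisone changes of the members was not tested beyond the rescaling and the removal of these rows. MI vehicle replicate 3 stood apart: its median gene lay 0.74 above the sham vehicle mean on the log2(TPM + 1) scale, and 14307 genes reached 1 TPM there against 11690 to 12772 elsewhere. Over all 13158 genes the median change was 0.39 for MI against sham under vehicle, -0.41 for prednisone against vehicle in MI and -0.48 for the interaction. When each library was rescaled by its median ratio to the others, the calls under vehicle went from 1981 higher and 119 lower to 490 and 489. Those for prednisone in MI went from 329 higher and 4588 lower to 1917 and 1870. Those for MI under prednisone went from 359 higher and 1854 lower to 1536 and 1881, and those for the interaction from 71 and 2726 to 674 and 649. Direction over many genes therefore depended on the scale, and rescaled values are given below where they alter a statement about a member.

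Mt2 was called higher in MI than in sham under vehicle, and lower with prednisone in MI hearts. It was measured at 21.7, 28.1 and 22.8 TPM in the sham vehicle mice and at 45.1, 72.1 and 69.1 TPM in the MI vehicle mice. In the prednisone groups it was at 14.8, 15.5 and 14.9 TPM after sham and at 26.1, 23.5 and 13.8 TPM after MI. The 3 MI vehicle libraries were the highest of all 12, and the MI prednisone libraries reached back into the range of the shams. Changes and their standard errors (SE) are given on the log2(TPM + 1) scale unless stated, from limma fitted to all genes and all 12 libraries, with p adjusted over the 13158 genes. Mt2 rose by 1.30 (SE 0.23, adjusted p = 0.0103) in MI against sham under vehicle, a 2.57-fold ratio of mean TPM. In MI hearts it fell by 1.53 with prednisone (SE 0.23, limma adjusted p = 0.00138), a 2.94-fold ratio of mean TPM in the other direction. In bulk tissue, fewer cells of a type and less RNA per cell cannot be told apart.

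In sham hearts the Mt2 values of the prednisone mice lay below those of all vehicle mice, but the change of -0.64 (SE 0.23) did not pass (unadjusted p = 0.0179, limma adjusted p = 1.0). The test of the difference between both prednisone effects did not pass either, at -0.89 (SE 0.33, adjusted p = 0.0709). MI against sham under prednisone was 0.41 (SE 0.23, adjusted p = 0.256). In order of mean, Mt2 was highest in MI vehicle (62.1 ± 14.8 TPM, SD, n = 3), then sham vehicle (24.2 ± 3.42), MI prednisone (21.1 ± 6.49) and sham prednisone (15.1 ± 0.39). All MI vehicle mice lay above all mice of the next group, whereas sham vehicle overlapped with MI prednisone, and MI prednisone with sham prednisone. The call for MI under vehicle was lost without sham vehicle replicate 1 (adjusted p = 0.0537) and without sham vehicle replicate 3 (adjusted p = 0.0567), and after correction for transcript length (0.86, adjusted p = 0.0721).

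Mt1, the more abundant of the pair, had smaller changes than Mt2 in 3 of the 4 comparisons between groups, and in MI against sham under prednisone the changes were alike (0.40 and 0.41). The difference between the pair was not tested. It was at 119.4, 138.7 and 148.4 TPM in the sham vehicle mice and at 104.8, 129.4 and 123.3 TPM in those given prednisone after sham. After MI it was at 152.1, 193.8 and 187.9 TPM under vehicle and 164.2, 181.2 and 130.9 TPM under prednisone. Every MI library lay above every sham library of the same treatment. The means were 177.9 ± 22.6 TPM in MI vehicle, 158.8 ± 25.6 in MI prednisone, 135.5 ± 14.8 in sham vehicle and 119.2 ± 12.8 in sham prednisone, with each group overlapping the next in this order. The change in MI was 0.39 under vehicle (SE 0.15, adjusted p = 0.0805) and 0.40 under prednisone (SE 0.15, adjusted p = 0.0885), and neither passed. Under vehicle this equals the median of all genes, and the sign turned to -0.05 after median-ratio rescaling and after length correction. Under prednisone the rescaled change was 0.51 and passed (limma adjusted p = 0.0415). Prednisone against vehicle was -0.17 in MI, where rescaling turned it to 0.29, and -0.18 in sham (SE 0.15 for both), and neither passed.

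The ratio of Mt1 to Mt2 within a library is free of the scaling between libraries. It was looked at after the values were seen and is given as a description with no test. After sham it was 5.50, 4.94 and 6.52 under vehicle and 7.08, 8.33 and 8.28 under prednisone. The MI ratios were 3.37, 2.69 and 2.72 under vehicle and 6.29, 7.72 and 9.49 under prednisone. All 3 MI vehicle mice lay below all others, and the MI prednisone and sham prednisone ranges overlapped, with means of 7.84 and 7.89. A ratio within a library shows unequal change of the pair, not which gene moved.

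**Figure D1:**
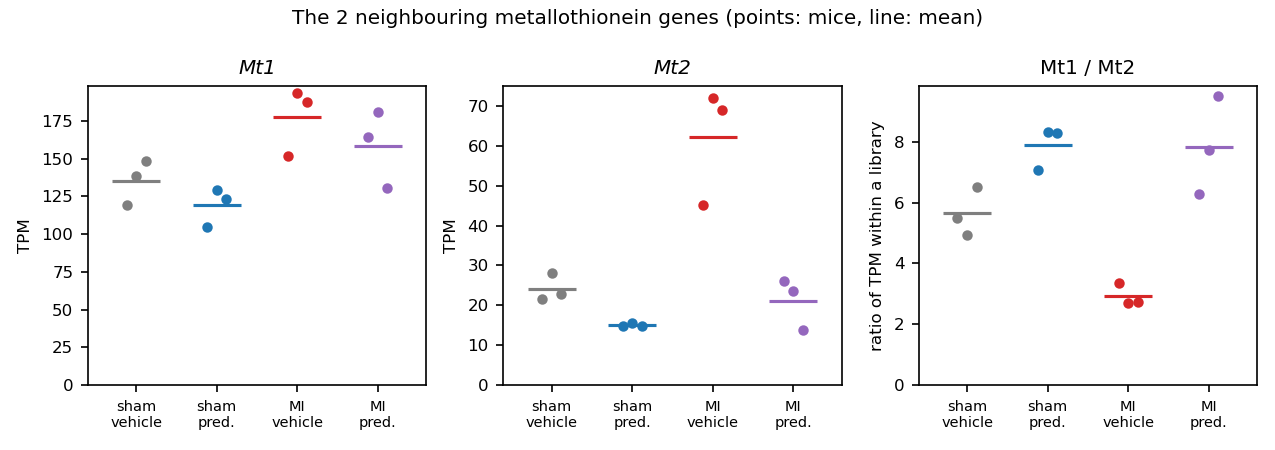
Level of Mt1 and of Mt2 in TPM (left and middle) and the ratio of Mt1 to Mt2 within each library (right), with a point for each mouse and a line at the mean of 3 mice per group, all axes from 0. The 3 MI vehicle mice have the highest Mt2 (45.1 to 72.1 TPM) and the lowest ratios (2.69 to 3.37).

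Reads of Mt2 may be shared. Of its 31-base words, 56.1% also occur in other annotated genes, nearly all of them (55.5%) in Gm45774, which overlaps Mt2 in antisense. The kit marks strand, but whether strand was used when reads were assigned is not given in the sources used here, so Mt2 values carry this uncertainty. For Mt1 the share was 0.0%. The main Mt2 transcript held 96.6% of the gene's TPM, and tested alone it gave 1.27 (adjusted p = 0.0295) for MI under vehicle and -1.64 (adjusted p = 0.00105) for prednisone in MI.

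Serpina3n, a secreted inhibitor of serine proteases, showed the clearest infarct response of the 7. It was at 5.64, 5.60 and 4.74 TPM under vehicle and 5.86, 5.32 and 5.39 TPM under prednisone after sham. In the infarcted hearts it was at 21.6, 50.5 and 27.1 TPM under vehicle and 14.1, 7.14 and 6.38 TPM under prednisone. All MI libraries lay above all sham libraries, and every MI vehicle library lay above every MI prednisone library. It rose by 2.34 in MI under vehicle (SE 0.30, adjusted p = 0.00505), a 6.21-fold ratio of mean TPM. In MI it fell by 1.73 with prednisone (SE 0.30, adjusted p = 0.00238), a ratio of 3.60 in mean TPM.

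In sham hearts the prednisone change of Serpina3n was 0.05 (SE 0.30, adjusted p = 1.0), and its sign was not stable (-0.03 after rescaling). The difference between its prednisone effects in MI and in sham passed, at -1.77 (SE 0.43, limma adjusted p = 0.0186). Serpina3n was the only one of the 7 members called in that test. The call was lost after rescaling (-1.26, adjusted p = 0.108), after length correction (-1.33, adjusted p = 0.172) and without sham vehicle replicate 3 (-1.70, adjusted p = 0.0503). Under prednisone, MI against sham was 0.57 (SE 0.30, adjusted p = 0.237) and did not pass, although the 3 MI libraries lay above the 3 sham libraries. In order of mean, MI vehicle (33.1 ± 15.4 TPM) was followed by MI prednisone (9.19 ± 4.23), sham prednisone (5.52 ± 0.29) and sham vehicle (5.33 ± 0.51), and both sham groups overlapped. Of the gene's 31-base words, 21.6% are shared with 13 other genes, the most being 5.90% with Serpina3f.

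Saa3 encodes the serum amyloid A that in the mouse is made outside the liver by macrophages, adipocytes and fibroblasts. Its sham vehicle values were 1.33, 0.26 and 0.28 TPM, and its sham prednisone values were 1.77, 0.35 and 3.06 TPM. After MI it was at 13.4, 18.0 and 5.16 TPM under vehicle and at 12.8, 2.54 and 1.36 TPM under prednisone. All MI vehicle libraries exceeded all sham vehicle libraries, whereas the MI prednisone libraries spread from within the sham range to MI prednisone replicate 1, which was within the MI vehicle range.

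Saa3 rose by 2.94 in MI under vehicle (SE 0.65, adjusted p = 0.0188), the largest change among the 7 members in that comparison. The ratio of mean TPM was 19.6, from a sham mean of 0.62 TPM, and rests on values near the filter. Prednisone in MI gave -1.29 (SE 0.65, adjusted p = 0.132), which did not pass with all mice and did without MI prednisone replicate 1 (-2.04, adjusted p = 0.0248). The call for MI under vehicle was lost without sham vehicle replicate 1 (adjusted p = 0.0567), without sham vehicle replicate 3 (adjusted p = 0.0828) and after length correction (2.50, adjusted p = 0.0664). In order of mean, MI vehicle (12.2 ± 6.52 TPM) was followed by MI prednisone (5.56 ± 6.29), sham prednisone (1.73 ± 1.35) and sham vehicle (0.62 ± 0.61), with each group overlapping the next. The sister genes Saa1 and Saa2, the liver forms, did not pass the filter. Saa1 was listed at 1.04 TPM at most and Saa2 at 0 in every library.

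Lcn2 encodes lipocalin 2, which binds bacterial siderophores and is stored in neutrophil granules and made by stressed epithelia and cardiomyocytes. It was low in sham, at 2.15, 1.90 and 2.14 TPM under vehicle and 3.18, 2.63 and 3.34 TPM under prednisone. Infarcted hearts had 4.92, 4.89 and 14.6 TPM under vehicle and 4.10, 4.94 and 2.14 TPM under prednisone. Sham prednisone and sham vehicle did not overlap, and the high value of 14.6 TPM came from MI vehicle replicate 3, the library that stood apart.

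Lcn2 rose by 1.41 in MI under vehicle (SE 0.35, adjusted p = 0.0258). Without MI vehicle replicate 3 the change was 0.95 (limma adjusted p = 0.0354). The call was lost without sham vehicle replicate 1, 2 or 3 (adjusted p of 0.0865, 0.0583 and 0.0923) and without the filter on low values (adjusted p = 0.0587). Prednisone against vehicle was -0.84 in MI (SE 0.35, adjusted p = 0.0762) and 0.40 in sham (SE 0.35, adjusted p = 1.0), and the difference of -1.24 (SE 0.49, adjusted p = 0.0891) did not pass. MI prednisone (3.73 ± 1.44 TPM) and sham prednisone (3.05 ± 0.37) overlapped, with a change of 0.18 (SE 0.35, adjusted p = 0.781). The order of means was MI vehicle (8.13 ± 5.58 TPM), MI prednisone, sham prednisone and sham vehicle (2.06 ± 0.14).

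Orm1 encodes alpha-1-acid glycoprotein, a drug-binding plasma protein of the liver that adipose tissue also makes. It varied widely within groups, and no comparison passed. After sham it was at 3.80, 5.25 and 0.33 TPM under vehicle and 1.23, 1.96 and 2.17 TPM under prednisone. After MI it was at 8.94, 0.24 and 18.2 TPM under vehicle and 2.23, 15.0 and 4.47 TPM under prednisone. The lowest and the highest of the 12 values were both in MI vehicle. The means were 9.13 ± 8.98 TPM in MI vehicle, 7.23 ± 6.82 in MI prednisone, 3.13 ± 2.53 in sham vehicle and 1.79 ± 0.49 in sham prednisone. Each group overlapped the next in this order. The change was 0.86 for MI under vehicle (SE 0.93, adjusted p = 0.461), 1.25 for MI under prednisone (SE 0.93, adjusted p = 0.398), where the groups did not overlap, and 0.09 for prednisone in MI (SE 0.93, adjusted p = 0.95). In sham, prednisone gave -0.31 (SE 0.93, adjusted p = 1.0). Of its 31-base words, 27.5% are shared with Orm2, which was listed at 0.56 TPM at most.

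Angptl4 was at 14.4, 10.9 and 4.01 TPM under vehicle and 10.8, 3.64 and 8.38 TPM under prednisone after sham. After MI it was at 13.6, 15.2 and 21.0 TPM under vehicle and 7.82, 22.5 and 9.69 TPM under prednisone. All 4 groups overlapped their neighbours, and the means fell in the order MI vehicle (16.6 ± 3.93 TPM), MI prednisone (13.4 ± 8.02), sham vehicle (9.77 ± 5.28) and sham prednisone (7.62 ± 3.66). No comparison of Angptl4 passed. MI gave 0.83 under vehicle (SE 0.48, adjusted p = 0.191) and 0.70 under prednisone (SE 0.48, adjusted p = 0.357). Prednisone gave -0.41 in MI (SE 0.48, adjusted p = 0.516), which turned to 0.02 after rescaling, and -0.28 in sham (SE 0.48, adjusted p = 1.0). Its main transcript held 77.3% of the TPM and a second one 18.0%, with no call for either.

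**Figure D2:**
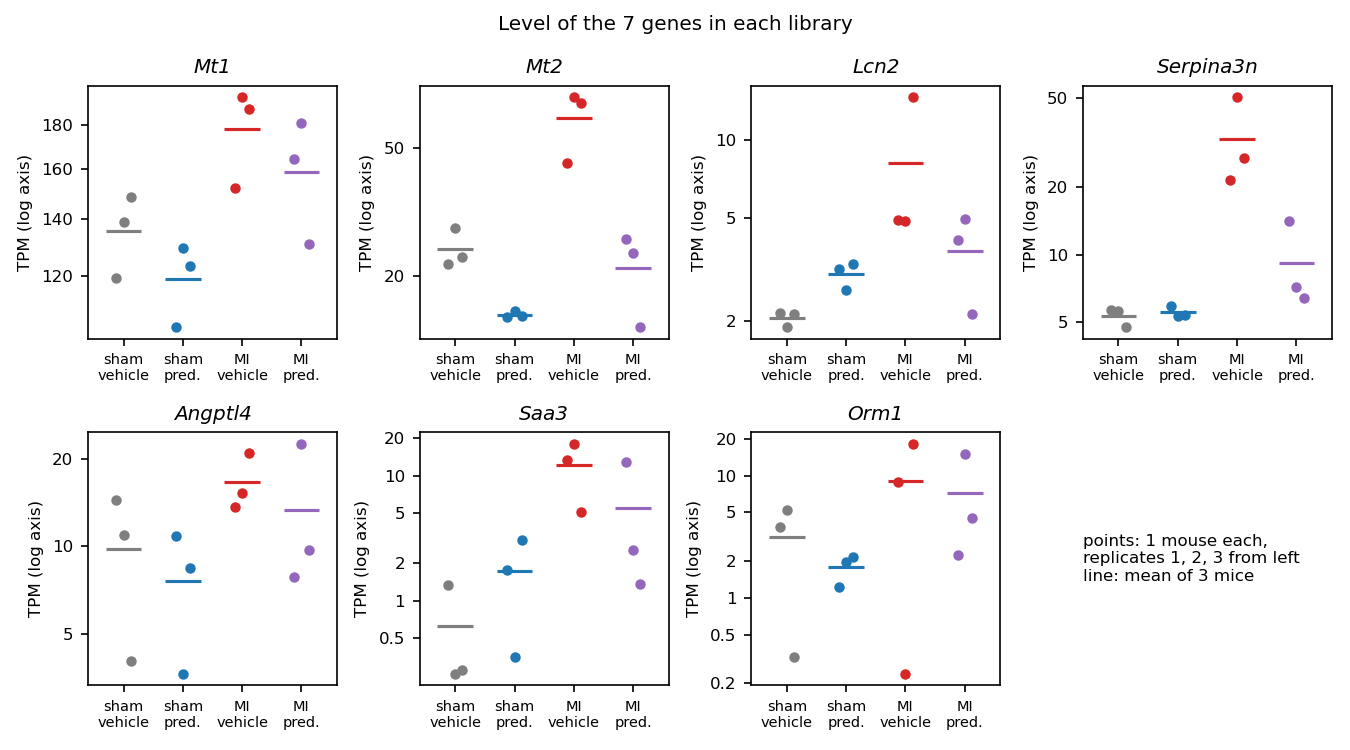
Level of each of the 7 genes in TPM (log axis) by group, with a point for each mouse, replicates 1 to 3 from left, and a line at the mean of 3 mice. Mt2 and Serpina3n are higher in every MI vehicle mouse than in any other mouse, Lcn2 is raised most in MI vehicle replicate 3 (14.6 TPM), and Orm1 spans 0.24 to 18.2 TPM within MI vehicle.

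Across the comparisons, 4 of 7 members were called higher and 0 lower in MI against sham under vehicle. Among all genes, 15.1% were called higher there and 0.904% lower. After median-ratio rescaling it was again 4 of 7, beside 3.72% of all genes called higher. The groups did not overlap, with MI higher, for 5 of 7 members and for 40.8% of all genes. The members' median change was 1.30, beside 0.39 for all genes. Leaving out MI vehicle replicate 3 kept the count at 4, beside 914 of all 13158 genes called higher. A fit to the MI vehicle and sham vehicle groups alone called 0 of 7 (limma adjusted p between 0.0684 and 0.134 for Serpina3n, Mt2, Saa3 and Lcn2). That fit called 2 of all 13158 genes. Without sham vehicle replicate 1 or 3 the count was 1, Serpina3n, beside 160 and 117 of all genes called higher.

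In MI hearts, 2 of 7 members, Mt2 and Serpina3n, were called lower with prednisone and 0 higher. Of all genes, 34.9% were called lower there and 2.5% higher, so the count of 2 is near the background share. After rescaling 14.2% of all genes were lower and both members were called still, at -1.08 for Mt2 (adjusted p = 0.00476) and -1.29 for Serpina3n (adjusted p = 0.0171). Both were also called in every other alternative run for this comparison. The groups did not overlap, with prednisone lower, for these 2 members and for 42.6% of all genes. The median change of the members was -0.84, beside -0.41 over all genes. This comparison and MI against sham under vehicle share the MI vehicle mice, so a high value in those mice enters both with opposite sign.

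Under prednisone, 0 of 7 members were called in MI against sham, where 2.73% of all genes were called higher and 14.1% lower by limma. At an unadjusted p under 0.05 there was 1 member, Mt1, and 4011 of all genes. In sham hearts, 0 of 7 were called with prednisone, beside 0.0532% of all genes higher and 0.0608% lower. At an unadjusted p under 0.05 there was 1 member, Mt2, and 469 of all genes. The difference between the prednisone effects was called for 1 of 7, Serpina3n, with 20.7% of all genes called lower and 0.54% higher. After rescaling, 0 of 7 were called there.

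**Figure D3:**
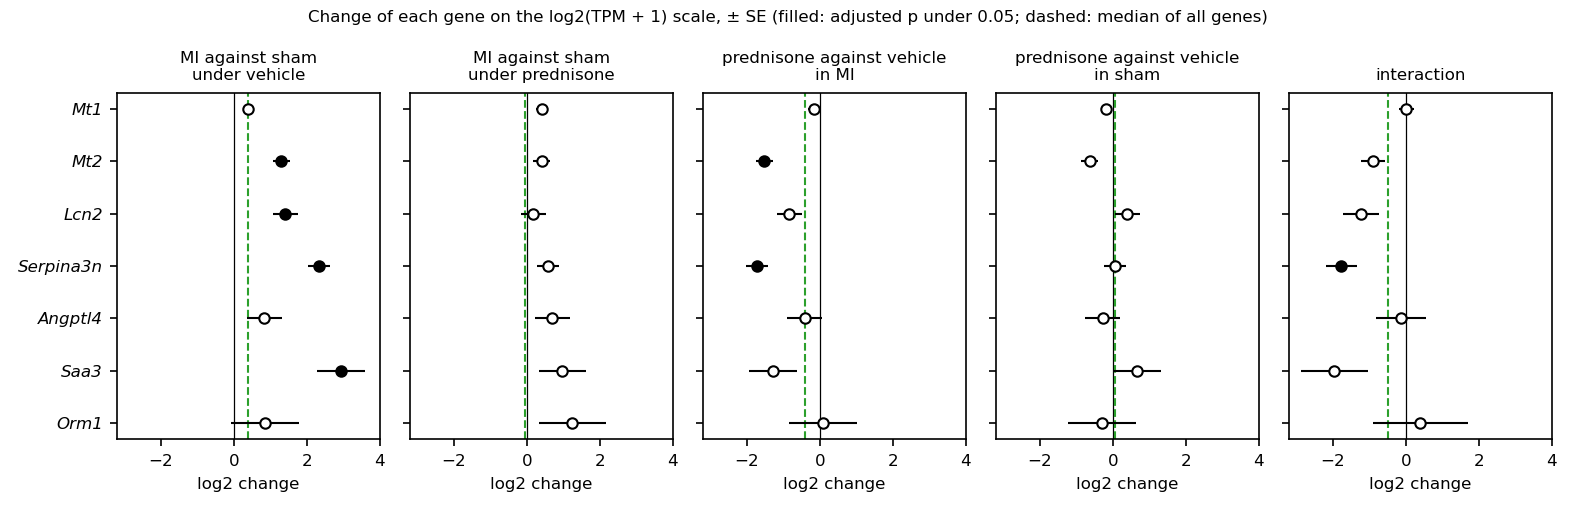
Change of each of the 7 genes on the log2(TPM + 1) scale with its standard error in the 5 comparisons, where filled points passed an adjusted p of 0.05 and the dashed line is the median change of all genes. Filled points are Mt2, Lcn2, Serpina3n and Saa3 for MI under vehicle, Mt2 and Serpina3n for prednisone in MI, and Serpina3n for the interaction.

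Marker genes of other cell types moved with several members. The 6 fibroblast markers (Pdgfra, Col1a1, Col1a2, Dcn, Lum and Tcf21, 6 of 6 at 1 TPM or more) summed to 326.4 to 425.4 TPM under vehicle and 349.3 to 417.5 under prednisone after sham. After MI they summed to 703.9 to 870.2 TPM under vehicle and 247.2 to 421.6 under prednisone. The sum was highest in MI vehicle replicate 2, the library with the highest Serpina3n, Mt2 and Saa3. The 9 macrophage markers were Cd68, Adgre1, Csf1r, Lyz2, Cd14, Mrc1, C1qa, C1qb and C1qc, 9 of 9 at 1 TPM or more. They summed to 315.7 to 441.2 TPM under vehicle and 356.8 to 479.1 under prednisone after sham. After MI they summed to 691.7 to 1461 TPM and 350.7 to 628.2 TPM in the same order. The 5 endothelial markers summed to 137.1 to 160.6 TPM and 160.4 to 188.0 TPM after sham, and to 182.4 to 256.8 TPM and 163.8 to 183.4 TPM after MI, in the same order. Of these, Pecam1, Cdh5 and Tek were called higher in MI under vehicle and lower with prednisone in MI. Kdr (0.19 and -0.22) and Vwf (0.71 and 0.48) were called in neither comparison, and with prednisone in MI Vwf had the opposite sign. All macrophage markers were called higher in MI under vehicle. With prednisone in MI, Cd14 (-0.63), Mrc1 (-0.53) and C1qa (-0.59) were not called and their groups overlapped, whereas the other macrophage markers were called lower. Lyz2 alone gave 371.1, 467.2 and 973.4 TPM of the MI vehicle macrophage sums of 691.7, 956.1 and 1461 TPM. The macrophage sum without Lyz2 was not tested. Across the 12 libraries the Pearson r of Mt2 was 0.88 with the fibroblast sum, 0.86 with the macrophage sum, 0.71 with the endothelial sum and -0.83 with the cardiomyocyte sum. For Serpina3n these were 0.88, 0.87, 0.81 and -0.74, and for Lcn2 they were 0.68, 0.93, 0.87 and -0.70. These libraries share their scaling and the contrast between groups, so the values are a description. The part of any of these cell types in the changes of Mt2, Serpina3n, Saa3 and Lcn2 was not tested.

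The 11 neutrophil markers, 5 of 11 at 1 TPM or more on average, summed to 6.37 to 23.7 TPM under vehicle and 14.8 to 21.7 under prednisone after sham. In MI vehicle they summed to 19.1, 16.4 and 159.3 TPM, and in MI prednisone to 34.9, 167.0 and 44.8 TPM. In all 4 groups the library with the highest sum was the one with the highest Lcn2, though in sham vehicle this rests on 2.15 against 2.14 TPM, and the library at 2.14 TPM had the lowest neutrophil sum. Pearson r with Lcn2 was 0.66, under the values for macrophage, endothelial, mesothelial, adipocyte, fibroblast and hepatocyte markers. The defining markers Ly6g, Mpo and Elane stayed between 0 and 0.35 TPM in every library. Most of both high sums was Ltf, at 100.6 TPM in MI vehicle replicate 3 and 142.0 TPM in MI prednisone replicate 2, where Lcn2 was at 14.6 and 4.94 TPM. The epithelial keratin Krt8, listed here among mesothelial markers, was also highest in those libraries, at 59.4 and 51.9 TPM, against 0.85 to 7.29 TPM in the other libraries. Their part in the Lcn2 values was not tested.

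Adipocyte markers (Adipoq, Plin1, Cfd, Lep, Retn and Fabp4, 6 of 6 at 1 TPM or more) summed to 573.6 to 1079 TPM under vehicle and 673.4 to 788.3 under prednisone after sham. They summed to 1461, 639.8 and 2887 TPM in MI vehicle and to 1221, 2403 and 968.8 in MI prednisone. Nearly all of the lowest sums was Fabp4, at 557.1 of 573.6 TPM in sham vehicle replicate 3 and 624.0 of 639.8 TPM in MI vehicle replicate 2. In all 4 groups the library with the highest sum had the highest Orm1. The same held in 3 of 4 groups for the macrophage, neutrophil, endothelial, mesothelial and hepatocyte sums. Adipoq was at 177.0 TPM in MI vehicle replicate 3, where Orm1 was at 18.2 TPM, and at 1.68 TPM in MI vehicle replicate 2, where Orm1 was at 0.24 TPM. Of 6 hepatocyte markers 1 reached 1 TPM on average, Ahsg, at 6.12 TPM (3.77 to 11.8 TPM). Albumin averaged 0.83 TPM and was highest, at 4.70 TPM, in MI vehicle replicate 3, and Ttr, Apoa1, Apob and Apoh stayed at 2.53 TPM or less. The hepatocyte sum was 4.28 to 20.8 TPM and was also highest in MI vehicle replicate 3. The part of adipose or liver-type RNA in Orm1 was not tested.

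**Figure D4:**
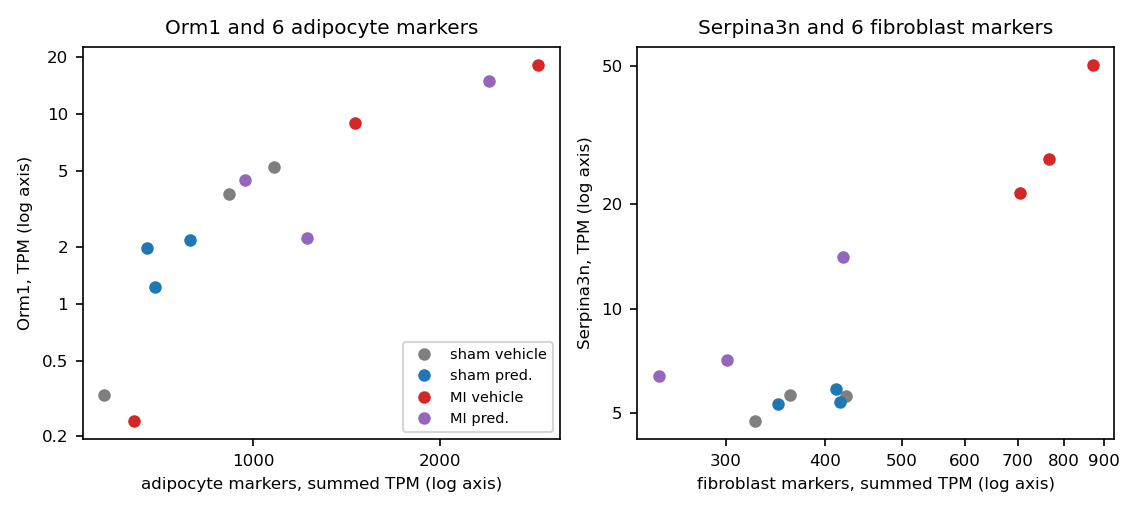
Level of Orm1 against the summed TPM of 6 adipocyte markers (left) and of Serpina3n against the summed TPM of 6 fibroblast markers (right), both axes logarithmic, a point for each of 12 mice coloured by group. Orm1 is highest where the adipocyte sum is highest (2887 and 2403 TPM), and the MI vehicle mice stand apart at fibroblast sums of 703.9 to 870.2 TPM.

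Other acute phase genes were few in these hearts. Of a list of 34, 14 passed the filter, and none of the other 20 exceeded 2.21 TPM in any library. In MI under vehicle 6 of the 14 tested were higher and 0 lower, beside 15.1% of all genes higher, with a median change of 0.93 beside 0.39. They were the members Serpina3n, Saa3 and Lcn2 together with Lbp, the lipopolysaccharide-binding protein (1.08, adjusted p = 0.0284), Cp, the ferroxidase ceruloplasmin (0.88, adjusted p = 0.00669), and Ptx3, a tissue pentraxin (0.70, adjusted p = 0.0264). Ptx3 lay at only 1.14 TPM on average in MI vehicle. After rescaling only the 3 members were called, beside 3.72% of all genes called higher. Without MI vehicle replicate 3 the count was 4, beside 914 of all 13158 genes called higher. With prednisone in MI 5 of the 14 were lower and 0 higher, a share near the 34.9% of all genes called lower there. They were Serpina3n, Serpina3g (-1.74, adjusted p = 0.033), Lbp (-1.07, adjusted p = 0.0116), Cp (-0.78, adjusted p = 0.00217) and Ptx3 (-0.62, adjusted p = 0.0172). After rescaling 2 were lower and 1 higher, beside 1870 of all 13158 genes lower and 1917 higher. Serpina3g reached 16.4 TPM in MI vehicle replicate 3, and without that library its change was -0.94 and no longer passed (adjusted p = 0.0636).

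Haptoglobin, Hp, the haemoglobin scavenger, was the most abundant gene of that list in MI. After sham it was at 26.3, 28.9 and 3.61 TPM under vehicle and 18.6, 14.5 and 21.7 TPM under prednisone. Infarcted hearts had 102.6, 26.0 and 195.1 TPM under vehicle and 58.8, 151.9 and 48.7 TPM under prednisone. Like Orm1 it was lowest among sham mice in sham vehicle replicate 3 and among MI mice in MI vehicle replicate 2. The change of 2.40 in MI under vehicle did not pass (adjusted p = 0.0595), nor did that of -0.09 with prednisone in MI (adjusted p = 0.937). Hamp, the iron hormone hepcidin, was at -0.62 (adjusted p = 0.188) and 0.92 (adjusted p = 0.0616).

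**Figure D5:**
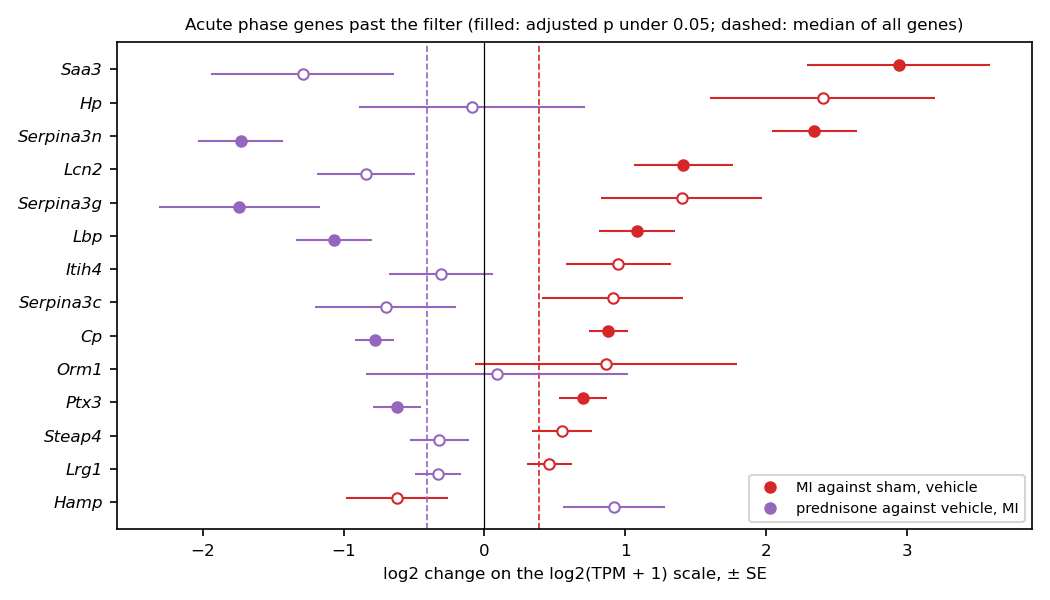
Change on the log2(TPM + 1) scale with its standard error for the 14 acute phase genes that passed the filter, for MI against sham under vehicle (red) and prednisone against vehicle in MI (purple), where filled points passed an adjusted p of 0.05 and dashed lines are the medians of all genes (0.39 and -0.41). Of the 14 genes, 6 are filled in red and 5 in purple, and Hp and Orm1 have wide errors.

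Upstream of these genes, 17 of 21 ligands, receptors, kinases and transcription factors of the acute phase pathway were tested. In MI under vehicle 9 were higher and 0 lower, beside 15.1% of all genes higher, with a median of 0.72 beside 0.39 for all genes. The largest were Socs3, the feedback inhibitor of Stat3 signalling (1.37, adjusted p = 0.00989), Cebpd, a C/EBP factor (1.01, adjusted p = 0.0187), and Il1r1, the interleukin 1 receptor (1.00, adjusted p = 0.0108). After rescaling 4 were higher, beside 3.72% of all genes. Without MI vehicle replicate 3 there were 6, beside 914 of all 13158 genes called higher. With prednisone in MI 13 were lower and 0 higher, beside 34.9% of all genes lower, with a median of -0.92 beside -0.41 for all genes. Among them were Il6st, the shared signal chain of the interleukin 6 receptors (-1.40, adjusted p = 0.000105), Il6ra (-1.31, adjusted p = 0.00347) and Nr3c1, the glucocorticoid receptor (-1.22, adjusted p = 0.00141). Stat3 fell by 0.92 (adjusted p = 0.00508), and Cebpb was at -0.45 (adjusted p = 0.274). After rescaling 10 were lower, beside 14.2% of all genes. The ligands Il6, Tnf, Osm and Lif did not pass the filter, at 0.95 TPM or less in every library. Il1b, the ligand that passed it, was called in neither comparison. Its changes were 0.72 in MI under vehicle (limma adjusted p = 0.137) and 0.34 with prednisone in MI (limma adjusted p = 0.458).

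Of the metallothionein and zinc list, 10 of 13 genes were tested. In MI under vehicle 3 were higher and 0 lower (15.1% of all genes higher, medians of 0.45 and 0.39). They were Mt2 and the zinc importers Slc39a10 (0.68, adjusted p = 0.0236) and Slc39a1 (0.58, adjusted p = 0.019). After rescaling Mt2 alone was called, beside 3.72% of all genes called higher. With prednisone in MI 6 were lower and 1 higher, beside 34.9% of all genes lower and 2.5% higher, with a median of -0.75 beside -0.41. The higher gene was Mt3, the brain-enriched metallothionein, at 0.78 (adjusted p = 0.0193), with means of 3.15 TPM in MI vehicle and 6.10 TPM in MI prednisone. Slc30a1, the zinc exporter that Mtf1 also controls, fell by 0.85 (adjusted p = 0.00146), Slc39a14 fell by 0.81 (adjusted p = 0.00429) and Slc39a10 by 0.77 (adjusted p = 0.00486). Mtf1 itself was at 0.14 in MI under vehicle (adjusted p = 0.409) and -0.31 with prednisone in MI (adjusted p = 0.0947). After rescaling 5 were lower and Mt3 was higher, beside 1870 of all 13158 genes lower and 1917 higher. Slc39a14 was then no longer called (-0.39, limma adjusted p = 0.166). With length correction Slc30a1 (-0.20), Slc39a14 (-0.24) and Slc39a10 (-0.15) were not called (limma adjusted p of 0.288, 0.394 and 0.48). Mt3 was still called there (1.03, limma adjusted p = 0.00273).

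Around Angptl4, all 22 genes of a list of lipase regulators and PPAR targets were tested. In MI under vehicle 1 was higher and 2 were lower, beside 15.1% of all genes higher and 0.904% lower. The higher one was Hilpda, a lipid droplet protein (0.82, adjusted p = 0.0457), at 0.50 and not called without MI vehicle replicate 3. Among the lower was Acot1, an acyl-CoA thioesterase (-0.94, adjusted p = 0.0199). With prednisone in MI 10 were lower and 0 higher, beside 34.9% of all genes lower, and the median of -0.41 was that of all genes. The largest were Ppara (-1.53, adjusted p = 0.00105), Cpt1a (-1.34, adjusted p = 0.00108) and Ucp3 (-1.20, adjusted p = 0.0103). Lpl, the lipase that Angptl4 inhibits, was at -0.34 (adjusted p = 0.0415) and turned to 0.12 after rescaling, and its anchor Gpihbp1 was at 0.18 (adjusted p = 0.277). After rescaling 2 were lower, Ppara and Cpt1a, and 2 higher, beside 1870 of all 13158 genes lower and 1917 higher. Ucp3 was then no longer called (-0.77, limma adjusted p = 0.0927). The Lcn2 receptor Slc22a17 was at 0.20 (adjusted p = 0.46) in MI under vehicle and 0.13 (adjusted p = 0.649) with prednisone in MI, and of the 4 partners of Lcn2 the 2 tested had no call.

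Since several members are known glucocorticoid targets, 12 other targets of the receptor were read alongside. With prednisone in MI 6 of 12 were lower and 0 higher, beside 34.9% of all genes lower, with a median of -0.63 beside -0.41. After rescaling 3 were lower, beside 14.2% of all genes. Before rescaling these 3 were Klf9 (-1.82, adjusted p = 0.000858), Per1 (-1.65, adjusted p = 0.00461) and Fkbp5 (-1.49, adjusted p = 0.0198). The rescaled changes were -1.38 for Klf9 (limma adjusted p = 0.00579), -1.24 for Per1 (adjusted p = 0.0232) and -1.08 for Fkbp5 (adjusted p = 0.0305). Fkbp5 was at 32.7 TPM in MI vehicle replicate 3 against 7.40 and 7.82 TPM in the other MI vehicle mice, and without that library its change was -0.84 (adjusted p = 0.00781). In sham 0 of 12 were called by limma, beside 0.0532% of all genes higher and 0.0608% lower. Among those not called, Cdkn1a was at 6.74 to 9.21 TPM in sham vehicle and at 16.6 to 25.0 TPM in sham prednisone. Per1 went the other way, from 11.3 to 16.6 TPM in sham vehicle to 2.84 to 8.74 TPM in sham prednisone. The other targets overlapped between the sham groups.

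The 7 members did not follow a single pattern over the 12 libraries. Pearson r on the log2(TPM + 1) scale was 0.90 between Mt2 and Serpina3n, 0.86 between Serpina3n and Saa3 and 0.79 between Mt1 and Mt2, but 0.07 between Saa3 and Orm1. Among 8110 other genes averaging 5 TPM or more, those nearest to Serpina3n were Col8a1, Itgbl1 and Fstl1 (0.99 each), and those nearest to Mt2 were Ptgis (0.98), C1qtnf7 and Timp3 (0.97 each). Nearest to Saa3 were Prg4 (0.94), Colec11 (0.91) and Mgp (0.90). Nearest to Orm1 were Tmem45b, Scd1 and Pck1 (0.98 each), and nearest to Lcn2 were Nip7 (0.98), Myl12b and BC005624 (0.97 each). For Mt1 they were Fam212a (0.94), Lrrk1 and Ltbr (0.93 each), and for Angptl4 Iffo1 (0.90), Insig1 (0.88) and G6pdx (0.86). These r values describe 12 libraries that share group differences and scaling, and the nearest genes were picked as the highest of 8110.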

How the data were processed

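RNA of 12 mouse hearts was measured, 3 per group, and samples were grouped by their titles. The authors deposited TPM for 105129 transcripts, summing to 1000000 in each library. Per the submitters' processing notes, Trimmomatic, HISAT2, kallisto and mm10 were used; their roles, versions and the annotation are not given in the sources used here. TPM was summed to genes by symbol. All tests used limma 3.58.1 (lmFit, eBayes with trend; R 4.3.3) on log2(TPM + 1), with a mean per group and Benjamini-Hochberg adjustment over 13158 genes, called at an adjusted p under 0.05. A change on this scale understates that of low genes. The code was tested on simulated data.

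The members and lists were chosen with earlier results of these data known. Always named were the 7 members, the 3 nearest genes to each, and from each list the largest calls and genes tied to a member. Alternatives were median-ratio rescaling, a pseudocount of 0.1, no filter, no trend, the most abundant transcript, a replicate block, only the 2 groups compared, leaving out mitochondrial RNA, its nuclear copies and globins, a correction for transcript length (loess, span 0.5, 11513 genes with a length), that with the block, and leaving out each mouse. Same-numbered mice did not deviate together (mean r from -0.37 to 0.00).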

Additional observations from a re-analysis of the deposited data

Results flagged for a closer look

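The prednisone effect on Serpina3n differed between infarcted and sham hearts by a test of the difference itself, at -1.77 on the log2(TPM + 1) scale (limma adjusted p = 0.0186). The effect was -1.73 in MI, where all 3 prednisone mice lay below all 3 vehicle mice, and 0.05 in sham, where the groups overlapped. The call was lost after median-ratio rescaling (-1.26, adjusted p = 0.108), after length correction (-1.33, adjusted p = 0.172) and without sham vehicle replicate 3 (-1.70, adjusted p = 0.0503). Of all genes, 20.7% were called lower in the same test, and 1 of the 7 members was.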

How the results depend on the processing

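Of 763 alternative values of the 7 genes' changes, 691 kept their direction and side of the threshold, 38 reversed, 23 lost a call and 11 gained one. TPM carries no depth, so changes of genes near 1 TPM, such as Saa3 in sham, are limited by a precision that is unknown. The members called in MI under vehicle (4 with all settings as reported) were 0 in a fit of only those 2 groups, 2 with length correction, 0 with length correction and replicate block, and 1 to 5 when a mouse was left out. Calls over all genes there were 2, 573, 69 and 120 to 5631 in the same order, against 2100 with all settings as reported. In MI under prednisone 1 was called after rescaling and 0 to 2 with a mouse left out. For the interaction 0 were called after rescaling, with length correction and with that and the replicate block, and 0 to 3 with a mouse left out. With the replicate block alone 3, 0, 2, 0 and 1 members were called for MI under vehicle, MI under prednisone, prednisone in MI, prednisone in sham and the interaction; Lcn2 was lost in the first (adjusted p = 0.0519), and the numbers are not a pairing of mice.

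Signs turned as follows; the cause was not tested. For MI under vehicle, Mt1 was at -0.05 after rescaling, with length correction and with length correction and replicate block. For MI under prednisone, Lcn2 was at -0.05 with length correction, with or without the block, and from -0.01 to 0.45 with a mouse left out. For prednisone in MI, Mt1 was at 0.29 after rescaling and 0.08 with length correction, Angptl4 at 0.02 after rescaling and Lpl at 0.12 and 0.24, and Orm1 ranged from -1.07 to 0.90 with a mouse left out. For prednisone in sham, Serpina3n was at -0.03 after rescaling, -0.02 without mitochondrial, nuclear-copy and globin rows, -0.01 with length correction and -0.02 to 0.08 with a mouse left out, where Angptl4 ranged from -0.76 to 0.12 and Orm1 from -0.99 to 0.12. For the interaction, Angptl4 was at 0.38, 0.02 and 0.26, Slc30a1 at 0.15 and Lpl at 0.01 and 0.13. With a mouse left out, that difference ranged from -0.56 to 0.35 for Angptl4, from -0.09 to 0.15 for Mt1 and from -0.76 to 1.21 for Orm1.

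Over all genes, 2100 were called for MI under vehicle, 2213 for MI under prednisone, 4917 for prednisone in MI, 15 for prednisone in sham and 2797 for the interaction. In the same order, the other settings called 2 to 2140, 866 to 6204, 808 to 9169, 6 to 17 and 95 to 5185. With a mouse left out the counts were 120 to 5631, 1027 to 3971, 3245 to 6274, 4 to 18 and 1111 to 4520.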
